A study of Mus musculus with 18 samples.

Results

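The genes described here are 7 that set how readily a cell dies by ferroptosis, taken by name from the 54848 rows of a table of gene expression in mouse kidney. Acsl4 and Lpcat3 are drivers, and Gpx4, Slc7a11, Slc3a2, Aifm2 and Gch1 are brakes. Capital A and capital N are missing from the symbols of the deposited table, so each name was matched after those letters had been deleted, and each of the 7 names matched exactly 1 row. They were listed by name and not by a cut on their levels, but with earlier results of these data known. The 18 libraries form 6 groups of 3, from sham-operated mice and from mice given a kidney that had been stored cold before grafting, each at days 1, 7 and 14. All groups carry the genotype label WT, and RNA came from renal cortex, of the graft in the transplant groups. Strain, sex, age, donor and recipient, the length of cold storage and the state of the recipient's own kidneys are not given in the labels used here. In every group, further label fields speak of rat tubule cells (RPTCs) and of STZ diabetes followed by ischemia-reperfusion; these go against the titles and the mouse gene identifiers, and the groups follow the titles. Separate animals are not stated for the numbered libraries, and the p-values therefore reflect the spread among libraries, which may be technical.

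Ferroptosis is a form of cell death driven by iron-dependent peroxidation of membrane lipids. Acsl4 activates long polyunsaturated fatty acids and Lpcat3 places them into phospholipids, which makes membranes easier to oxidise. Against this, Slc7a11 and Slc3a2 form the cystine importer that feeds glutathione synthesis, and Gpx4 uses glutathione to reduce lipid peroxides; Aifm2, also known as FSP1, and Gch1 act alongside through reduced coenzyme Q and tetrahydrobiopterin. Tubular epithelium is a known site of ferroptosis when blood flow returns to a kidney after ischemia.

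Expression was given as FPKM, fragments scaled to gene length and library total, so levels of different genes can be compared. The sums per library ran from 386928 to 524435, the sequencing depth behind them is unknown, and no interval that needs depth is given. Kidney identity held in sham: the summed level of 12 proximal tubule markers was 4450 to 4980 FPKM, with none of them at 0. After transplantation this sum was 749 to 1560 FPKM at day 1, 1960 to 2170 at day 7 and 2740 to 3760 at day 14. Injured tubule markers summed to 311 to 434 FPKM in sham and 5050 to 12100 in transplant, and macrophage markers to 19.4 to 34.4 in sham and 55.3 to 57.4, 244 to 502 and 157 to 314 in transplant at the 3 days. Differences below are limma log2 differences of FPKM + 1, transplant minus sham, with SE, n = 3 libraries a group and p-values adjusted over all 15278 genes tested. The median difference of all tested genes was itself 0.31, 0.41 and 0.27 at day 1, day 7 and day 14, and 0.30, 0.45 and 0.33 after rescaling without genes of the mitochondrial chromosome, whose share of the sum was 28.8% to 31.5% in sham and 14.4% to 27.7% in transplant. Median-of-ratios scaling centres all genes near 0 (medians 0.030, 0.023 and 0.017). Its values are given for the 7 genes, and for other named genes where it changes a call that is stated. Its counts stand beside those of each gene list. On the deposited scale 29.6%, 35.5% and 22.3% of all tested genes were called higher at day 1, day 7 and day 14. The shares called lower were 9.56%, 6.01% and 5.12%. Under median-of-ratios scaling 2243, 1769 and 1744 of the 15278 genes were higher, and 2365, 1952 and 1707 lower. List counts are to be read against these. Of the 106 pathway genes tested, 5 (Lpcat2, Chac1, Lrp8, Gpx7 and Slc7a5) passed the filter through transplant libraries alone. Alox12, Slc7a6 and Atf3 reached 1 FPKM in fewer than 3 sham libraries and also needed transplant libraries to pass. The filter favours a rise in all of these genes, so their calls, and their part in list counts, are no support for a rise. In whole tissue, fewer cells of a type and less RNA per cell cannot be told apart.

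In sham kidney the 7 genes spanned a wide range of levels. Gpx4 led with a mean of 244 FPKM over the 9 sham libraries, above 99% of tested genes, followed by Slc3a2 with 75.3 FPKM and Lpcat3 with 36.5 FPKM. Acsl4 stood at 14.0 FPKM and Aifm2 at 3.62 FPKM, while Gch1 at 0.349 FPKM and Slc7a11 at 0.0544 FPKM were low. The order of the 7 means was the same in all 3 sham groups. Between the sham days, limma called 0 of the 6 tested genes in each of the 3 sham contrasts, with 0 at an unadjusted p below 0.05, where at most 0.00655% of all tested genes were called. Slc7a11 was the member not tested, because it reached 1 FPKM in 1 library where the filter asked for 3.

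Gch1 reached the filter only through 3 transplant libraries, so the filter favoured a difference. Gch1 is left out of the counts of called genes in this paragraph. Of the other 5 tested genes, 4 were called higher and 0 lower at day 1 after transplantation, where 29.6% of all tested genes were called higher and 9.56% lower. At day 7, 2 were called higher, against 35.5% of all tested genes, and at day 14 it was 1, against 22.3%, with 0 called lower at either day (backgrounds of 6.01% and 5.12%). As shares of these 5 genes the counts are 80%, 40% and 20%. Under median-of-ratios scaling 1 of the 5, Acsl4, was called higher at each day. At day 7, 2 of the 5, Gpx4 and Slc3a2, were called lower under that scaling (-0.50 and -0.62). Of the 15278 genes, 1769 were then called higher and 1952 lower at day 7. With Slc7a11 and Gch1 also counted, the 3 transplant libraries lay above the 3 sham libraries for 6 of the 7 genes at day 1. At day 7 it was 2 and at day 14 it was 1. The shares of all tested genes were 37.9%, 48.5% and 31.5%. Gch1 is among the 6 though it met the filter through transplant alone, and Slc7a11 was not among the tested genes. Without replicate 2 of transplant day 1, or without replicate 1 of sham day 1, 3 genes were called higher at day 1.

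**Figure D1:**
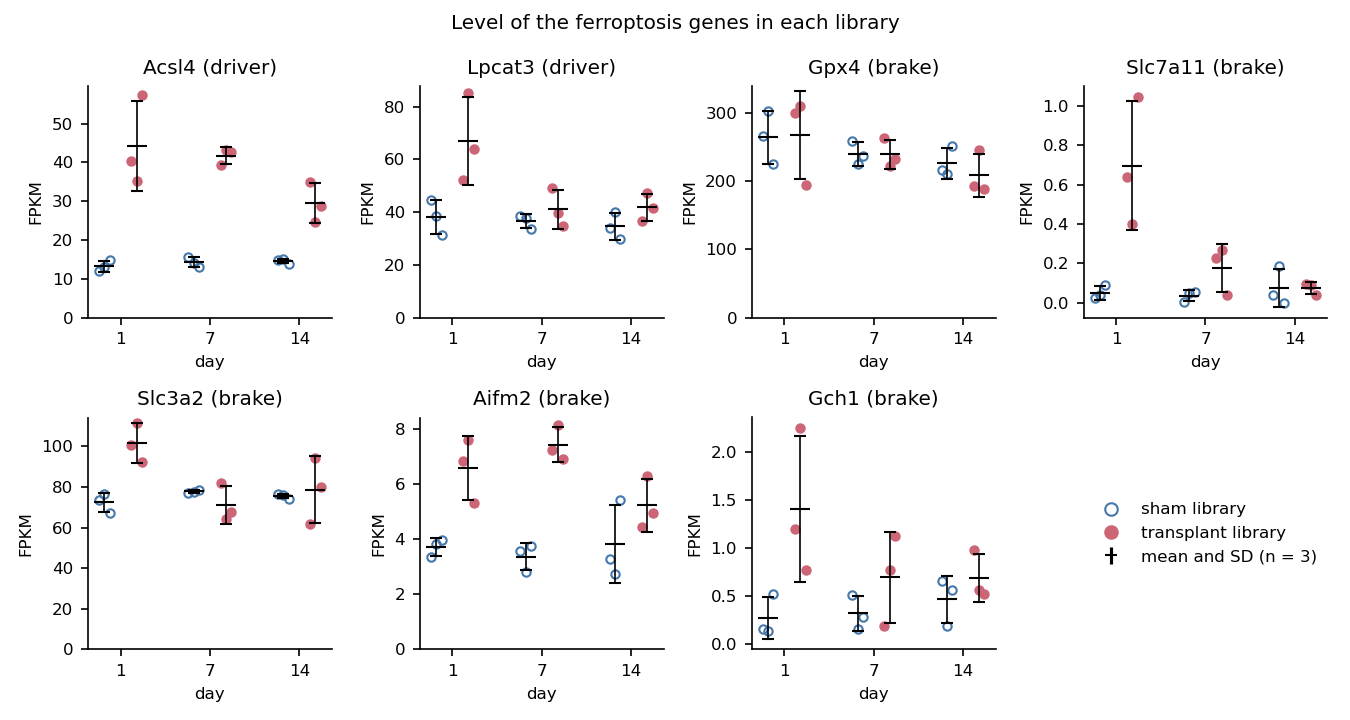
Level in FPKM of each ferroptosis gene by day, with 1 panel per gene and its own vertical axis; open circles are sham libraries, filled circles transplant libraries, and bars give mean and SD of 3 libraries. Acsl4 transplant libraries lie at 24.7 to 57.4 FPKM, above all sham libraries (12.0 to 15.6) at every day, while Gpx4 transplant and sham libraries overlap at every day.

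Acsl4 (ENSMUSG00000031278, chromosome X, 142317993 to 142390535, minus strand, GRCm38) encodes the acyl-CoA synthetase that activates arachidonic and adrenic acid. Its sham libraries measured 12.0, 13.0 and 14.8 FPKM at day 1, 15.6, 14.1 and 13.0 FPKM at day 7, and 14.7, 15.0 and 13.9 FPKM at day 14. Its transplant libraries measured 40.3, 35.2 and 57.4 FPKM at day 1, 39.4, 43.3 and 42.6 FPKM at day 7, and 35.0, 24.7 and 28.7 FPKM at day 14. Every transplant library lay above every sham library of its day and of the other days, and the 9 sham libraries lay close together. Acsl4 rose by 1.64 ± 0.16 on the log2 scale at day 1 (limma adjusted p = 3.44e-07), by 1.49 ± 0.16 at day 7 (1.88e-06) and by 0.96 ± 0.16 at day 14 (3.20e-04). As a ratio of mean FPKM, transplant held 3.34, 2.94 and 2.02 times the sham level. Under median-of-ratios scaling the rises were 1.27, 1.02 and 0.65 (adjusted p = 8.52e-06, 1.56e-04 and 0.00854). The rise was thus called on both scales at all 3 days. The effect at day 14 was smaller than at day 1 by a difference of -0.68 (95% interval -1.17 to -0.20), which did not pass the test over all genes (adjusted p = 0.0686). It passed without replicate 2 of transplant day 1 (-0.83, adjusted p = 0.0272) and without replicate 1 of transplant day 14 (-0.81, adjusted p = 0.0311).

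Lpcat3 (ENSMUSG00000004270, chromosome 6, 124663027 to 124704418, plus strand) encodes the acyltransferase that inserts polyunsaturated chains into phospholipids. Sham libraries measured 44.5, 38.7 and 31.5 FPKM at day 1, 38.4, 37.7 and 33.5 at day 7, and 33.9, 40.2 and 29.9 at day 14. Transplant libraries measured 52.2, 85.1 and 64.0 FPKM at day 1, 49.1, 39.6 and 34.7 at day 7, and 36.7, 47.2 and 41.5 at day 14. The groups stood apart at day 1 and overlapped at day 7 and day 14. Lpcat3 rose at day 1 by 0.78 ± 0.18 (limma adjusted p = 0.00222). Its difference was 0.15 ± 0.18 at day 7 (adjusted p = 0.513) and 0.27 ± 0.18 at day 14 (adjusted p = 0.291). Under median-of-ratios scaling the day 1 rise was 0.41 and no longer passed (adjusted p = 0.0853), and the later differences turned to -0.33 and -0.052 (adjusted p = 0.189 and 0.868). Emg1 on the opposite strand shares 334 exon bases with Lpcat3, differed at day 1 by 0.52, and reached 43.1 FPKM; whether reads were counted by strand is not given, so reads of the shared bases cannot be assigned.

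The ratio of Lpcat3 to Acsl4 within a library, which no scaling between libraries can move, was lower in most transplant libraries. It had sham medians of 2.98, 2.59 and 2.30 at day 1, day 7 and day 14, and transplant medians of 1.30, 0.913 and 1.45. The lowest sham ratio, 2.12, lay above every transplant ratio of day 7 (0.813 to 1.25) and day 14 (1.05 to 1.91), while 1 transplant library of day 1 reached 2.42. By mean level Lpcat3 was above Acsl4 in every group except transplant day 7, where Acsl4 averaged 41.8 ± 2.1 (SD) FPKM and Lpcat3 41.1 ± 7.3 FPKM, a gap within the spread of Lpcat3.

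Acsl4 and Lpcat3 belong to enzyme families, and 10 of their 11 relatives passed the filter. Of these 10, 4 rose and 1 fell at day 1, 5 rose at day 7 and 5 rose at day 14. Under median-of-ratios scaling 3 were higher at each day, and 3, 2 and 1 were lower. On the deposited scale the median difference of the list was 0.24, 0.74 and 0.80, where all tested genes had 0.31, 0.41 and 0.27. Acsl5, a synthetase of mitochondria and the endoplasmic reticulum, rose at every day as Acsl4 did, by 1.28, 1.05 and 0.88 (limma adjusted p = 6.42e-07, 1.07e-05 and 1.20e-04), from 15.3 ± 0.9 to 38.7 ± 3.3 (SD) FPKM at day 1. Acsl3, which activates oleic acid and is linked to resistance to ferroptosis, fell at day 1 by 0.61 (adjusted p = 0.0251) and rose at day 7 by 0.56 (adjusted p = 0.0365), the latter not under median-of-ratios scaling (0.12). Acsl1, a long-chain synthetase of oxidative tissues, differed by -0.48, -0.47 and 0.37 without passing the test, and was called lower under median-of-ratios scaling at day 1 and day 7 (-0.85 and -0.96). Lpcat4 rose at every day, by 1.32, 1.22 and 1.43, while Lpcat2, an acyltransferase of inflammatory cells that makes platelet-activating factor, was at 0.15 FPKM in sham and 0.25 FPKM in transplant at day 1 and differed by 1.54 at day 7 and 1.43 at day 14. Lpcat2 passed the filter through 5 transplant libraries and no sham library, the highest sham value being 0.557 FPKM. The filter thus favoured a difference, and the Lpcat2 calls are no support for a rise. Macrophage markers were higher beside Lpcat2, with 10 of 10 higher at day 7 and day 14 against 3 of 10 at day 1; their part in its difference was not tested.

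**Figure D2:**
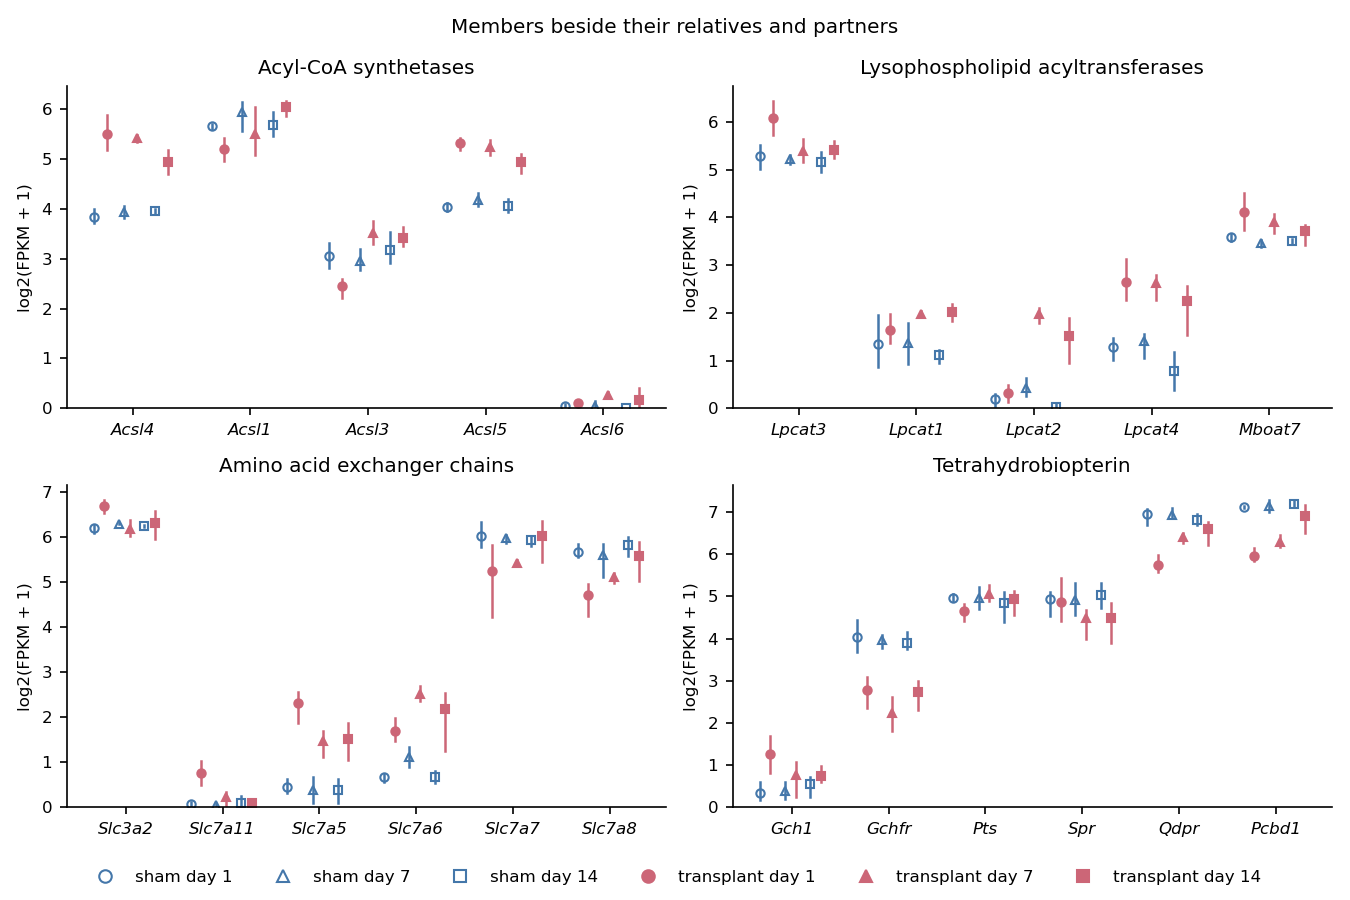
Mean log2(FPKM + 1) of the ferroptosis genes beside relatives and partners in the 6 groups, with bars from the lowest to the highest of 3 libraries; blue open symbols are sham and red filled symbols transplant. Acsl5 rises with Acsl4 at every day, and Gchfr, Qdpr and Pcbd1 are lower after transplantation at day 1. Gch1 transplant libraries lie above its sham libraries at day 1, but Gch1 passed the filter through transplant libraries alone.

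Gpx4 (ENSMUSG00000075706, chromosome 10, 80047166 to 80056439, plus strand) encodes the peroxidase that reduces lipid peroxides inside membranes. It is a selenoprotein: a stop codon within its reading frame is read as selenocysteine, the residue at its active site. That codon is shown because the selenium genes described further on serve it. In GENCODE's annotation of GRCm38 it lies at chromosome 10, 80054737 to 80054739, in exon 3 of 7, and is codon 129 of the transcript Gpx4-201 and codon 73 of Gpx4-202. The reference sequence around it, with 24 bases on each side and the selenocysteine codon in capitals, is:
Gpx4 selenocysteine codon: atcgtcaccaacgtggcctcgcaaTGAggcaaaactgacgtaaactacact

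Gpx4 sham libraries measured 266, 303 and 225 FPKM at day 1, 259, 225 and 237 at day 7, and 216, 210 and 252 at day 14. Transplant libraries measured 299.6, 309.8 and 194 FPKM at day 1, 264, 222 and 232 at day 7, and 192, 245 and 189 at day 14. The groups overlapped at every day, and the widest spread was in transplant day 1, where replicate 3 stood far below the other libraries of its group. The differences were -0.002, -0.007 and -0.12 (SE 0.17; limma adjusted p = 0.996, 0.978 and 0.63), with 95% intervals of -0.35 to 0.35 at day 1, -0.36 to 0.34 at day 7 and -0.47 to 0.23 at day 14. Relative to the median of all genes Gpx4 lay lower. Under median-of-ratios scaling its differences were -0.38, -0.50 and -0.45, and the day 7 value passed the test (adjusted p = 0.103, 0.0405 and 0.0697). The day 1 difference was 0.21 without replicate 3 of transplant day 1. Gpx4-ps2, a processed copy of the gene, held 24.7 to 33.7 FPKM as group means and may share reads with it.

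The balance of Gpx4 over Acsl4 within a library is free of scaling. The 9 sham libraries held 14.0 to 23.3 FPKM of Gpx4 for each FPKM of Acsl4, and the 9 transplant libraries 3.38 to 9.91. The ranges did not overlap. The transplant medians were 7.44 at day 1, 5.44 at day 7 and 6.60 at day 14, against sham medians of 22.1, 16.6 and 14.7. The lowest ratio, 3.38, was that of replicate 3 of transplant day 1, which also had the highest Acsl4, the lowest Gpx4 of its day and the lowest proximal tubule marker sum of all libraries (749 FPKM, against 1565 and 1103 in the other libraries of its group). Whether cell composition shared in the ratio of Gpx4 to Acsl4 was not tested. The ratio of Gpx4 to the other driver, Lpcat3, stood apart only at day 1. There it was 5.97 to 7.83 in sham and 3.03 to 5.74 in transplant. At day 7 the ranges overlapped, with 5.97 to 7.06 in sham and 5.37 to 6.69 in transplant. At day 14 they met, with 5.24 to 8.44 in sham and 4.56 to 5.24 in transplant.

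**Figure D3:**
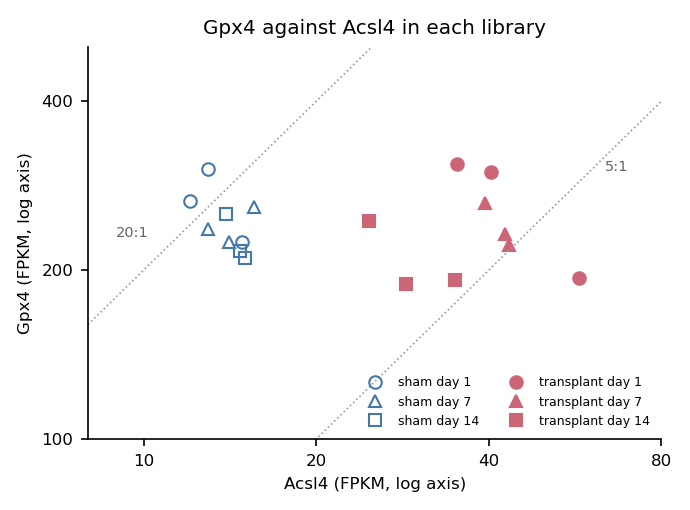
Gpx4 against Acsl4 in FPKM for the 18 libraries, both axes on a log scale, with open symbols for sham, filled symbols for transplant, a shape for each day and dotted lines at constant ratio. Transplant libraries lie to the right of sham libraries at similar heights, so their ratios (3.38 to 9.91) fall below those of sham (14.0 to 23.3).

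Other glutathione peroxidases and peroxide reductases went both ways. Of 7 tested relatives, 3 rose and 3 fell at day 1 and again at day 7, and 2 rose at day 14. Under median-of-ratios scaling 2 were higher and 3 lower at each day. Gpx3, the secreted peroxidase that the proximal tubule makes for plasma and the most abundant relative, fell from 7063 ± 248 to 4752 ± 714 (SD) FPKM at day 1, a difference of -0.58 (limma adjusted p = 0.00514), and by 0.68 at day 7 (adjusted p = 0.00184). Gpx1, the cytosolic peroxidase, fell by 0.60 at day 1 and by 0.51 at day 7 (adjusted p = 0.0125 and 0.0296), and differed by -0.22 at day 14, where it was called lower under median-of-ratios scaling (-0.55). At day 1 Prdx6, a peroxiredoxin that can reduce phospholipid peroxides, and Txnrd1, thioredoxin reductase, rose by 0.95 and 1.14 (adjusted p = 1.11e-05 and 2.13e-05). Gpx8, a peroxidase of the endoplasmic reticulum, rose by 0.931 at day 1, 1.29 at day 7 and 1.21 at day 14. Its day 1 rise was not called under median-of-ratios scaling (0.595). Gpx7, another of that compartment, differed by 1.18 at day 7 and 1.06 at day 14, having passed the filter through 5 transplant libraries and no sham library. Proximal tubule markers fell beside Gpx3, 11 of 12 at day 1 and 7 of 12 at day 7, and fibroblast markers rose beside Gpx7, 7 of 7 at day 7 and day 14; their part in these changes was not tested.

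Of 9 tested genes that help make selenoproteins, 1 rose and 2 fell at day 1 and at day 7, and 0 rose and 3 fell at day 14. Under median-of-ratios scaling 1, 0 and 0 were higher and 3, 4 and 3 lower at the 3 days. The only gene called higher was Lrp8, which passed the filter through 5 transplant libraries and no sham library. Sephs2, which makes the selenium donor for selenocysteine and carries a selenocysteine codon itself, fell by 1.13, 0.92 and 0.60 at the 3 days (limma adjusted p = 1.96e-05, 2.23e-04 and 0.00888). Lrp2, encoding megalin, the tubule receptor that takes up selenoprotein P among many ligands, fell by 2.14, 1.02 and 0.81, and it is itself one of the proximal tubule markers.

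Slc7a11 (ENSMUSG00000027737, chromosome 3, 49892526 to 50443614, minus strand) encodes xCT, the cystine-carrying chain of the importer, and is a known target of the stress factor ATF4 through amino acid response elements. Its promoter is shown because it carries 2 such elements and because its level was highest in transplant at day 1. The sequence is that of RefSeq on GRCm38.p6, chr3:50443564-50443863, minus strand, from 250 bases before to 50 bases after the gene's start, with the 2 matches to the core TGATGNAA (N is any base, searched on both strands) in capitals:
Slc7a11 promoter: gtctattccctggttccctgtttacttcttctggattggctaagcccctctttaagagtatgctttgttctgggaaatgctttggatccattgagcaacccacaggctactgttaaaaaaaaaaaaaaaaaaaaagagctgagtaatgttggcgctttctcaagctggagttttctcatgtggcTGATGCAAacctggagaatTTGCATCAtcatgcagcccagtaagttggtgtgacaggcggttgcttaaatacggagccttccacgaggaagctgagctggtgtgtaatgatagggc

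The elements lie at positions -66 to -59 on the gene's strand and -47 to -40 on the other strand and do not overlap. Of 32851 RefSeq promoters of the same length, 3.97% held this core at least once. None of the other 9 promoters listed for the 7 genes held it, and none of the 10 held the antioxidant response element core TGACNNNGC, found in 12.4% of promoters. The Sp1 box GGGCGG, found in 35.7%, was present in promoters of Acsl4, Lpcat3, Gpx4, Slc3a2 and Gch1, with some of the Acsl4 and Lpcat3 matches overlapping each other. A match is a run of letters and not shown to be bound.

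Slc7a11 sham libraries measured 0.0225, 0.0383 and 0.0905 FPKM at day 1, 0.00497, 0.0505 and 0.0557 at day 7, and 0.0420, 0.185 and 0 at day 14. Transplant libraries measured 0.639, 0.402 and 1.05 FPKM at day 1, 0.227, 0.270 and 0.0402 at day 7, and 0.0943, 0.0921 and 0.0382 at day 14. All 3 transplant libraries of day 1 lay above every sham library, and at day 7 and day 14 the groups overlapped. The ratio of mean FPKM was 13.8, 4.84 and 0.988 at the 3 days. A two-sided exact permutation test of the mean gave p = 0.1, 0.3 and 1, where 0.1 is the smallest p that 3 libraries against 3 can give. These levels are too low for the deposited values to say how many fragments lie behind them.

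Slc3a2 (ENSMUSG00000010095, chromosome 19, 8706882 to 8723369, minus strand) encodes CD98hc, the heavy chain that carries xCT and several other transporters to the cell surface. Sham libraries measured 73.8, 76.4 and 67.2 FPKM at day 1, 77.1, 77.7 and 78.6 at day 7, and 76.3, 76.0 and 74.3 at day 14. Transplant libraries measured 100.7, 111.8 and 92.5 FPKM at day 1, 81.7, 64.2 and 67.6 at day 7, and 61.6, 94.5 and 80.0 at day 14. Sham libraries were tight, the day 1 groups stood apart, and the later transplant libraries fell on both sides of sham. Slc3a2 rose at day 1 by 0.48 ± 0.14 (limma adjusted p = 0.0103) and differed by -0.13 ± 0.14 at day 7 and 0.037 ± 0.139 at day 14 (adjusted p = 0.453 and 0.873). Under median-of-ratios scaling the day 1 difference was 0.10 and did not pass (adjusted p = 0.643), the day 7 difference was -0.62 and passed (adjusted p = 0.00289), and the day 14 difference was -0.29 (adjusted p = 0.157). The change of effect from day 1 to day 7 was -0.61 (adjusted p = 0.0884), and it passed under that scaling (-0.72, adjusted p = 0.0491) and without replicate 1 of transplant day 14 (-0.61, adjusted p = 0.0378).

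The other chains that pair in this transporter family went in both directions. All 7 that were tested were called at day 1, 2 higher and 5 lower. At day 7 there were 2 higher and 3 lower, and at day 14 there were 2 higher and 1 lower. With median-of-ratios scaling 2 were higher at each day, and 5, 5 and 2 were lower. Slc7a13, a cystine and aspartate transporter of the straight proximal tubule, fell from 367 ± 52 to 16.3 ± 3.2 (SD) FPKM at day 1, by 4.42 on the log2 scale, with differences of -6.16 and -5.31 at day 7 and day 14 (limma adjusted p at most 1.35e-12). Slc7a5, the LAT1 light chain of Slc3a2, differed by 1.83, 1.09 and 1.12 over sham means of 0.30 to 0.37 FPKM, having passed the filter through the 9 transplant libraries alone. Slc7a6, a light chain for cationic amino acids, differed by 1.01, 1.41 and 1.41. It reached 1 FPKM in 2 sham libraries and 9 transplant libraries, so it too needed transplant to pass the filter. The 2 chains called higher were thus both favoured by the filter. Slc7a7 and Slc7a8, the light chains of the tubule's basolateral side, fell at day 1 by 0.89 and 0.98 (adjusted p = 0.0190 and 0.00241), as did Slc3a1 and Slc7a9, the cystine reabsorption pair of the brush border, by 1.59 and 0.78. The proximal tubule markers fell beside them, 11 of 12 at day 1, and their part was not tested.

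Glutathione is made from the cystine that this importer brings in. Of 11 tested genes of its synthesis, recycling and breakdown, 4 rose and 3 fell at day 1. At day 7 and again at day 14, 3 rose and 3 fell. Under median-of-ratios scaling 3 were higher at each day, and 4, 5 and 5 were lower. Chac1, counted as higher at day 1 on both scales, passed the filter through 3 transplant libraries and no sham library. Cbs, which starts the making of cysteine from methionine, fell from 67.4 ± 8.4 to 10.3 ± 4.1 (SD) FPKM at day 1, by 2.67 on the log2 scale, and by 2.02 and 1.36 later (limma adjusted p = 2.05e-07, 8.45e-06 and 7.22e-04). Ggt1, the brush border enzyme that breaks down glutathione outside the cell, fell by 1.64, 1.48 and 1.27. G6pdx, which supplies NADPH, rose by 1.64, 1.10 and 0.87, called under both scalings at all 3 days.

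Of the 8 tested transcription regulators of Slc7a11 and Gpx4, 6 rose at day 1, 6 at day 7 and 4 at day 14, and 0 fell. Trp53, whose protein represses Slc7a11, rose by 2.16, 1.31 and 0.91 (limma adjusted p = 5.50e-07, 1.89e-04 and 0.00568). Atf3, another repressor of Slc7a11, differed by 2.19, 2.12 and 0.88 (limma adjusted p = 2.54e-05, 5.23e-05 and 0.0450). Atf3 reached 1 FPKM in 1 sham library and 9 transplant libraries. It passed the filter only with transplant, so its p-values are no support for a rise. The day 14 differences of Trp53 and Atf3 were not called under median-of-ratios scaling (0.61 and 0.73). Atf4, encoding the factor whose elements are shown above, rose by 1.10 at day 1 and 0.999 at day 7 (limma adjusted p = 5.98e-04 and 0.00157). It differed by 0.24 at day 14 (limma adjusted p = 0.43). Under median-of-ratios scaling the day 1 rise of Atf4 was called (0.73) and the day 7 rise was not (0.52). Its part in the level of Slc7a11 was not tested. Nfe2l2, encoding the activator NRF2, rose by 0.67, 0.95 and 0.63, of which only the day 7 rise was called under median-of-ratios scaling. Under that scaling 3 of the 8 were higher at day 1 and at day 7 and 0 at day 14, when 1 was lower.

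Aifm2 (ENSMUSG00000020085, chromosome 10, 61715263 to 61739260, plus strand) encodes the oxidoreductase that reduces coenzyme Q at membranes. Sham libraries measured 3.33, 3.82 and 3.98 FPKM at day 1, 3.55, 2.78 and 3.73 at day 7, and 3.28, 2.73 and 5.40 at day 14. Transplant libraries measured 6.82, 7.57 and 5.30 FPKM at day 1, 7.22, 8.12 and 6.89 at day 7, and 4.42, 6.29 and 4.93 at day 14. The groups stood apart at day 1 and day 7, and at day 14 a single sham library, replicate 3, lay among the transplant libraries. Aifm2 rose by 0.67 ± 0.20 at day 1 (limma adjusted p = 0.0141) and by 0.95 ± 0.20 at day 7 (adjusted p = 0.00146), and differed by 0.40 ± 0.20 at day 14 (adjusted p = 0.157). On the deposited scale it was the only tested brake called after day 1. The day 1 call was lost without replicate 2 of transplant day 1 (0.58, adjusted p = 0.0602) and without replicate 1 of sham day 1 (0.62, adjusted p = 0.0524), and day 14 passed without replicate 3 of sham day 14 (0.63, adjusted p = 0.0353). Under median-of-ratios scaling neither rise passed, at 0.36 for day 1 and 0.54 for day 7 (adjusted p = 0.216 and 0.0643). H2afy2 on the opposite strand shares 233 exon bases with Aifm2, differed at day 7 by 0.81 and reached 7.00 FPKM, so the caution on strand given for Lpcat3 holds here too.

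The ratio of Gpx4 to Aifm2 within a library ran from 46.7 to 80.8 in sham libraries and from 27.4 to 43.9 in transplant libraries, and the ranges did not overlap. Among 14 tested genes of coenzyme Q synthesis and reduction, 1 rose and 3 fell at day 1, 2 rose and 2 fell at day 7, and 0 rose and 1 fell at day 14. Under median-of-ratios scaling 1 was higher and 5 lower at day 1, 0 and 7 at day 7, and 0 and 2 at day 14. Nqo1, another quinone reductase, rose with Aifm2 at day 1 by 0.98 (limma adjusted p = 5.87e-04) and at day 7 by 0.62, the latter not under median-of-ratios scaling. Coq8a and Coq9, which help make coenzyme Q in mitochondria, fell by 1.55 and 0.79 at day 1 and by 1.69 and 0.79 at day 7.

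Gch1 (ENSMUSG00000037580, chromosome 14, 47153895 to 47189413, minus strand) encodes the rate-limiting enzyme of tetrahydrobiopterin synthesis. Sham libraries measured 0.156, 0.131 and 0.518 FPKM at day 1, 0.512, 0.151 and 0.282 at day 7, and 0.648, 0.185 and 0.558 at day 14. Transplant libraries measured 1.19, 2.25 and 0.767 FPKM at day 1, 0.182, 0.769 and 1.12 at day 7, and 0.971, 0.555 and 0.519 at day 14. The day 1 groups stood apart and the later groups overlapped. Gch1 passed the filter through exactly 3 libraries, all of them transplant, so it entered the test because it was high there. Its difference was 0.89 ± 0.28 at day 1 (limma adjusted p = 0.0178), 0.33 ± 0.28 at day 7 (adjusted p = 0.358) and 0.21 ± 0.28 at day 14 (adjusted p = 0.627). The filter makes the day 1 p no support for a difference. Under median-of-ratios scaling the day 1 difference was 0.74 (adjusted p = 0.0442). The p missed the threshold without replicate 2 of transplant day 1 (0.65, adjusted p = 0.105) and without replicate 1 or replicate 2 of sham day 1 (0.83 and 0.81, adjusted p = 0.0580 and 0.0637).

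Of 6 other tested genes of tetrahydrobiopterin synthesis and recycling, 0 rose and 4 fell at day 1 and at day 7, and 0 rose and 2 fell at day 14, with list medians of -1.19, -0.63 and -0.44. Under median-of-ratios scaling 0 were higher and 5 lower at each day. Gchfr, the feedback regulator that binds the Gch1 enzyme and inhibits it, fell from 15.3 ± 4.6 to 5.83 ± 1.71 (SD) FPKM at day 1, by 1.25 on the log2 scale, and by 1.76 and 1.18 at day 7 and day 14 (limma adjusted p = 6.80e-04, 3.55e-05 and 0.00206). Qdpr and Pcbd1, which regenerate tetrahydrobiopterin after use, fell at day 1 by 1.22 and 1.17 and at day 7 by 0.52 and 0.84. Pts and Spr, which finish the synthesis that Gch1 starts, did not pass the test at any day on the deposited scale, with differences of -0.33 and -0.13 at day 1. Under median-of-ratios scaling Pts was called lower at day 1 (-0.70, adjusted p = 0.00761) and Spr at day 7 and day 14 (-0.90 and -0.90, adjusted p = 0.0309 and 0.0333). The fall of proximal tubule markers given above moved with these genes, and its part was not tested.

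**Figure D4:**
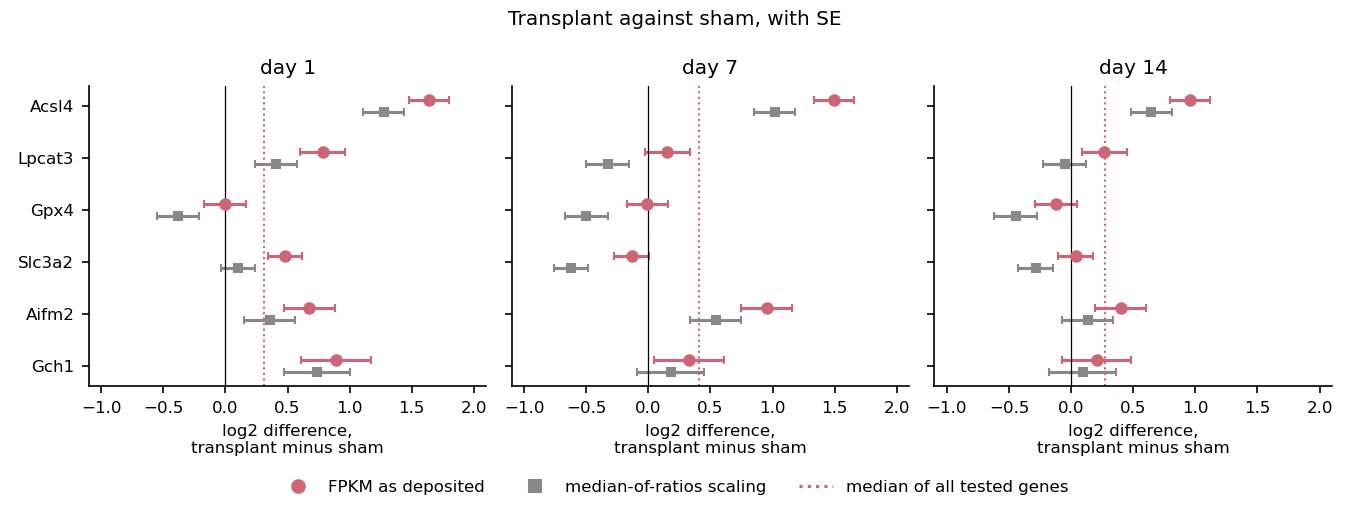
Log2 difference, transplant minus sham, with SE for the 6 tested genes at each day; red circles use FPKM as deposited, grey squares use median-of-ratios scaling, and the dotted line marks the median of all tested genes. Acsl4 lies clear of the median line at every day (1.64, 1.49 and 0.96), and Gpx4 lies at or below 0 under both scalings.

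Whether the change after transplantation differed between days was tested directly. Of the 6 genes, 0 were called in each of the 3 contrasts between days, where 4.37% (day 7 against day 1), 0.615% (day 14 against day 7) and 10.3% (day 14 against day 1) of all tested genes were called. The unadjusted p was below 0.05 for 2, 1 and 2 of the 6. The smallest adjusted p-values were 0.0884 for Slc3a2, 0.366 for Acsl4 and 0.0686 for Acsl4.

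Of 11 tested genes of polyunsaturated and ether lipid supply, 0 rose and 5 fell at day 1. At day 7 and at day 14 alike, 2 rose and 2 fell. Of all tested genes, 29.6%, 35.5% and 22.3% were called higher and 9.56%, 6.01% and 5.12% lower at the 3 days. Under median-of-ratios scaling 0 of the 11 were higher at any day, and 7, 5 and 4 were lower. Agps, needed to make ether lipids in peroxisomes, fell at every day, by 1.50, 1.35 and 1.63 (limma adjusted p = 1.19e-06, 6.67e-06 and 1.76e-06), from 66.1 ± 7.8 to 23.0 ± 5.1 (SD) FPKM at day 1. Fads2, the desaturase at the entry to arachidonic acid synthesis, fell at day 1 by 1.72 and at day 7 by 0.81. Elovl5, which lengthens those chains, rose at day 7 by 0.67 and at day 14 by 0.57, though not under median-of-ratios scaling (0.20 and 0.26). Scd1, which makes the monounsaturated chains that compete with them, fell at day 1 by 3.23 and at day 7 by 1.60, while Scd2 rose at day 7 by 1.28 and at day 14 by 1.14.

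Of 12 tested genes of iron supply, 7 rose and 1 fell at day 1, 4 rose and 1 fell at day 7, and 2 rose and 2 fell at day 14. Under median-of-ratios scaling 4 were higher and 3 lower at day 1, and 2 and 3 at day 7 and at day 14. Hmox1, which frees iron from haem, rose at day 1 from 16.4 ± 2.1 to 113 ± 20 (SD) FPKM, by 2.70 (limma adjusted p = 7.30e-08), and differed by 0.42 and -0.09 at the later days. Fth1, the ferritin chain that stores iron, rose at day 1 by 1.07 and fell by 0.46 and 0.39 at day 7 and day 14 (adjusted p = 6.84e-07, 0.00359 and 0.0154). Slc40a1, the iron exporter, rose by 0.573 at day 1, 1.03 at day 7 and 1.21 at day 14, the day 1 rise not under median-of-ratios scaling (0.211). Of 7 tested lipid oxidation enzymes, 2 rose and 1 fell at day 1 and at day 7, and 3 rose and 1 fell at day 14. Under median-of-ratios scaling 0, 2 and 2 were higher and 1, 3 and 1 lower. Cybb and Alox5ap, an NADPH oxidase subunit and a lipoxygenase partner of myeloid cells, rose at day 7 by 2.16 and 2.07 and at day 14 by 1.89 and 2.18, beside the macrophage markers, whose part was not tested. Alox15, a lipoxygenase often linked to ferroptosis, was listed at 0 in all 9 sham libraries and reached at most 0.0947 FPKM after transplantation.

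**Figure D5:**
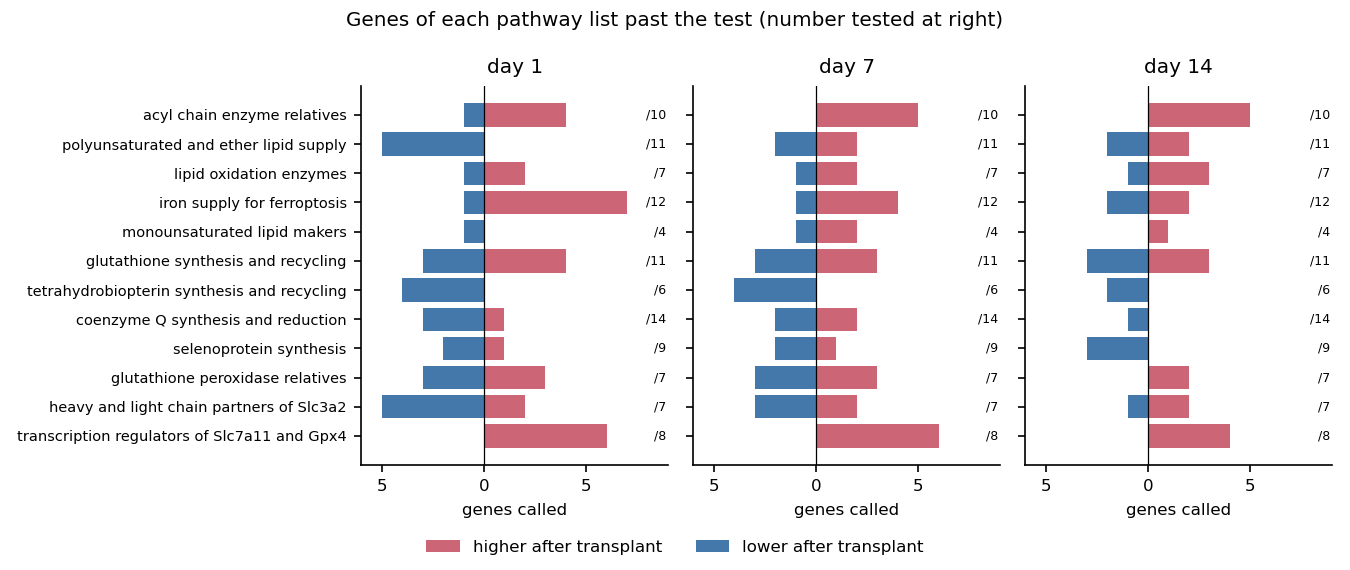
Number of genes called higher (red, to the right) and lower (blue, to the left) after transplantation in each list of pathway genes at each day, with the number tested at the right edge. The tetrahydrobiopterin list has bars on the lower side only (4, 4 and 2 of 6), and the transcription regulator list on the higher side only (6, 6 and 4 of 8).

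Over the 12 lists together, 106 of 116 genes were tested, and 30 rose and 29 fell at day 1, 32 rose and 22 fell at day 7, and 24 rose and 15 fell at day 14. Among all tested genes the shares called higher were 29.6%, 35.5% and 22.3%, and lower 9.56%, 6.01% and 5.12%. Under median-of-ratios scaling 19 of the 106 were higher and 41 lower at day 1, 18 and 43 at day 7, and 15 and 30 at day 14.

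Each of the 7 genes was set beside the tested genes whose levels over the 18 libraries were most like it, by Pearson r of log2(FPKM + 1), given as a description because the libraries fall into groups and share one scaling. Acsl4 was most like Klf6 (r = 0.985), Hnrnpk (0.984) and Wwtr1 (0.982), and Lpcat3 most like Snx9 (0.932), Mapkap1 (0.930) and Nacc2 (0.918). Slc7a11 was most like Gbe1 (0.935), Prdx1 (0.913) and Srxn1 (0.911), of which Prdx1 and Srxn1, a peroxiredoxin and the reductase that restores it, are known NRF2 targets. Outside transplant day 1 Slc7a11 held at most 0.270 FPKM, against 0.402 to 1.05 there, so its r rests mainly on that group. A link to NRF2 was not tested. Slc3a2 was most like Psap (0.902), Gstp1 (0.882) and Ftl1 (0.858), and Aifm2 most like Pcna (0.928), Vps36 (0.926) and Slc50a1 (0.921). Gch1 was most like Rab7 (0.872), Rrp8 (0.867) and Tarbp1 (0.863). For Gpx4 the values were lower, at 0.795 for Por and 0.771 for Grina.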

How the data were processed

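The table deposited by the authors holds FPKM per gene for 18 libraries of mouse kidney RNA. Per the submitters' processing notes the build is mm10, the assembly also called GRCm38, and DESeq2 is listed with no role. How reads were aligned, counted and annotated is not given in the sources used here. Capital A and N are missing from identifiers and symbols. Identifiers were repaired and 54819 of 54848 matched GENCODE M21, where 54239 symbols agreed once A and N were removed; 17 rows with 7 repeated identifiers were left out. No libraries held identical values, and all value columns were mapped. Values below 0.1 FPKM were compared as ratios between pairs of libraries. The commonest ratio of a pair held 0.501% to 2.11% of these low genes, so no common step was seen. Reads were not recovered, and depth is unknown.

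Genes at 1 FPKM or more in at least 3 libraries (15278) were fitted as log2(FPKM + 1) by 6 group means in limma 3.58.1 (R 4.3.3), with robust moderation and a mean trend. Calls needed an adjusted p (Benjamini-Hochberg, per contrast) below 0.05. The step was tested on simulated data. The pseudocount of 1 understates changes of low genes. Slc7a11 was tested by exact permutation. Alternatives tried were other pseudocounts (0.1 and 5), other filters (none, or mean FPKM from 5 upward), median-of-ratios scaling, rescaling without mitochondrial genes, only the day's libraries, moderation that was not robust, a replicate block and each library left out.

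The members and the lists were chosen with earlier results of these data known. Text names the 7 members, up to 2 called genes per pathway list and day with the smallest adjusted p, relatives and partners of a member, marker genes, and the 3 genes most like each member; some genes picked by this rule are not reported here. Emg1, H2afy2, Gpx4-ps2, Alox12, Alox15, Chac1, Lrp8 and Atf4 fall outside this rule. Markers were 12 proximal tubule, 5 injured tubule, 10 macrophage and 7 fibroblast genes; those of other cells were computed too. Endothelial markers summed to 56.6 to 84.6 FPKM in sham and 85.7 to 115 in transplant, and neutrophil markers to at most 2.93 and 73.0, with Ly6g at 0 in all groups. Thick limb and distal tubule markers summed to 1060 to 1420 and 813 to 1950 FPKM, podocyte markers to 46.4 to 65.1 and 57.5 to 72.7, T and NK cell markers to 0.363 to 2.85 and 0.0637 to 7.01, and B cell markers to at most 0.680 and 1.48. Tables were handled with Python 3.11.15 and pandas 2.3.3, and figures drawn with matplotlib 3.10.9.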

Additional observations from a re-analysis of the deposited data

How the results depend on the processing

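Across the alternatives Acsl4 kept its call at every day, and the sequencing depth, which is unknown, limits what can be said of Slc7a11 and Gch1. Median-of-ratios scaling changed most. Under it the day 1 differences of Lpcat3, Slc3a2 and Aifm2 were 0.41, 0.10 and 0.36 and that of Aifm2 at day 7 was 0.54, none called; Gpx4 and Slc3a2 at day 7 were called lower (-0.50 and -0.62), as was the Slc3a2 effect at day 7 minus day 1 (-0.72); Lpcat3 at day 7 and day 14, Slc3a2 at day 14, the Gpx4 effect at day 14 minus day 7 and Aifm2 in sham day 14 minus day 1 changed sign (-0.33, -0.052, -0.29, 0.052 and 0.015). The cause was not tested. Members called higher, Gch1 included, were then 2 at day 1 and 1 at day 7, and called lower 2 at day 7. All genes called higher and lower numbered 2243 and 2365 at day 1, 1769 and 1952 at day 7, and 1744 and 1707 at day 14, and pathway genes higher 19, 18 and 15 and lower 43 at day 7 and 30 at day 14. Rescaling without mitochondrial genes turned the sign of Gpx4 at day 7 (0.038), of its effect at day 7 minus day 1 (0.056) and of the Aifm2 sham difference (0.026). With a mean FPKM of at least 5, fewer genes were tested: 3589 and 2049 were higher at day 7 and day 14, 14 pathway genes were higher at day 14, and the Acsl4 effect at day 14 minus day 1 (-0.68) passed. With the day's libraries only, fewer samples entered, and 2255 genes were higher at day 14. Slc7a11 followed the pseudocount, with log2 differences of 2.35, 0.93 and 0.12 at 0.1 and 0.17 at day 1 at 5; a pseudocount of 5 put Aifm2 in sham day 14 minus day 1 at 0.005.

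Leaving out 1 library at a time, day 1 differences ran from -0.12 to 0.21 for Gpx4, 0.58 to 0.80 for Aifm2 and 0.65 to 1.09 for Gch1. At day 1, 3 to 5 members were called higher, Gch1 included, beside 3633 to 4678 of the 15278 tested genes. At day 7 Gpx4 ran from -0.079 to 0.048. At day 14 Slc7a11 ran from -0.049 to 0.074, Slc3a2 from -0.10 to 0.20 and Aifm2 from 0.24 to 0.63. At that day 1 to 2 members were higher, beside 2580 to 3613 of all tested genes. Pathway genes called lower numbered 9 to 17, beside 586 to 847 of all tested genes. Effects at day 7 minus day 1 ran from -0.29 to 0.052 for Acsl4, -0.22 to 0.12 for Gpx4 and -0.72 to -0.55 for Slc3a2. That of Gch1 at day 14 minus day 7 ran from -0.36 to 0.059, and those at day 14 minus day 1 from -0.83 to -0.48 for Acsl4 and -0.33 to 0.002 for Gpx4. Sham differences, none called, ran at day 7 minus day 1 from -0.18 to 0.062 for Lpcat3 and -0.049 to 0.19 for Gch1, at day 14 minus day 7 from -0.026 to 0.097 for Acsl4, -0.19 to 0.016 for Lpcat3 and -0.12 to 0.27 for Aifm2, and at day 14 minus day 1 from -0.23 to 0.16 for Aifm2.

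No link between same-numbered libraries is stated. Deviations of same-numbered sham and transplant libraries correlated at -0.041 to 0.101 over 9 pairs, 1 of them over 0.1. Of the 9 sham libraries, 4 correlated best with their own number. With 3 libraries a group this cannot tell whether same-numbered libraries shared a batch or were paired. With the replicate number as a block, no call of a member changed (Aifm2 at day 1 had an adjusted p = 0.0360 from limma), and uncalled sham differences changed sign for Lpcat3 at day 7 minus day 1 (0.16), Aifm2 at day 14 minus day 7 (-0.065) and Slc3a2 at day 14 minus day 1 (-0.10).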
